A study of Homo sapiens with 10 samples.

Results

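The neurotrophins and their receptors were followed through 5 lines of TREx293 cells as 6 genes of the 58216 in the deposited count table, chosen by symbol: the ligand genes BDNF, NTF3 and NTF4 and the receptor genes NTRK2, NTRK3 and NGFR. TREx293 is a derivative of the human embryonic kidney line HEK293 with a tetracycline repressor and a single recombination site, and doxycycline switches on whatever is inserted there. RNA was sequenced in bulk from 2 libraries of each of 5 groups. CTRL cells have the genotype wild type, and the other lines are labelled as knock-ins of BEND2, of MN1, of the fusion MN1-BEND2 or of the fusion MN1-CXXC5. Per the labels, inserted constructs carried a 3×HA tag in the vector pcDNA5/FRT/TO, lines were selected with Blasticidin and Hygromycin, and doxycycline induced expression. The labels do not say whether CTRL cells received doxycycline or the empty vector, or whether replicate libraries stem from independent cultures. The p-values therefore measure only how far these libraries scatter, which may be technical. Constructs were driven from a viral promoter in a kidney-derived line, whereas the study's title places these fusions in astroblastoma, a brain tumour.

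Neurotrophins are secreted growth factors of the nervous system that are made as precursors and cut by proteases. BDNF and NT-4 (from NTF4) act through the receptor kinase TrkB (NTRK2) and NT-3 (NTF3) mainly through TrkC (NTRK3). All of them, and especially their uncut precursors, also bind the receptor p75 (NGFR), which has no kinase. Trk signalling runs through adaptor proteins to the MAP kinase, PI3 kinase and phospholipase C pathways and switches on immediate early genes such as EGR1 and FOS. BDNF is transcribed from several alternative promoters, whose best known elements bind CREB and basic helix-loop-helix factors.

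Reads were counted per gene, so no start site or isoform can be told from these data, including the truncated forms of TrkB and TrkC that lack the kinase. Among the members that passed the filter on low counts in every group, BDNF and NTRK2 were higher than in CTRL in both fusion lines, and stretches before their RefSeq start sites (table of build GRCh38.p14) are shown with motifs of the BDNF regulators named above in capitals. The table matched 5 of the 6 members, all but NGFR, with 13 windows that run from 250 bases before to 50 after a start (5 of BDNF, 4 of NTRK2, 2 of NTF3, 1 each of NTRK3 and NTF4). The motifs, searched on both strands, were the CRE half-site TGACG, which reads as CGTCA where it lies on the opposite strand, the full CRE TGACGTCA, which contains a half-site on each strand, the E-box CACGTG and the GC box GGGCGG. Each stretch below is the 250 bases before the start, 5′ to 3′ on the gene's strand: chr11:27720780-27721029 (minus strand) and chr11:27701622-27701871 (minus strand, 12 of its bases exonic in another transcript) for BDNF, and chr9:84670099-84670348 (plus strand) for NTRK2.
BDNF start 2: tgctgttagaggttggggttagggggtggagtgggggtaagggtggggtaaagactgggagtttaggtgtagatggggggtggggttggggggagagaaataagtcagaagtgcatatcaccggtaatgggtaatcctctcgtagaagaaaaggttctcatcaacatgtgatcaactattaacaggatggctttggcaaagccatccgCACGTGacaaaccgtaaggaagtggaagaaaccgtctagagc
BDNF start 4: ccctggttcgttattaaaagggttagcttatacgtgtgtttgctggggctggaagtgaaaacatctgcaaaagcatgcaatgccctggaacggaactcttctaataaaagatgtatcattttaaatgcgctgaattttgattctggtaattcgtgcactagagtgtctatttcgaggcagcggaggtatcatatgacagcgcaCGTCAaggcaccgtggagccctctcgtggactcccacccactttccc
NTRK2 start 3: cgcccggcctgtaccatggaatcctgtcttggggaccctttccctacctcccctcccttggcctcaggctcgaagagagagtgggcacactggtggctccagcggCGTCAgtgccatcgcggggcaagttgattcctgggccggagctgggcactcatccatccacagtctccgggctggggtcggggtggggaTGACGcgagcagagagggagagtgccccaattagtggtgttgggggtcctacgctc

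Before BDNF start 2 lies the only E-box among the members' 13 windows, and 7.3% of all 35116 windows in the table hold one. A CRE half-site lies before BDNF start 4 and 2 lie before NTRK2 start 3, and 24.6% of all windows hold at least 1. No member window holds the full CRE, which 1.8% of all windows hold, and the GC box is in 8 of the 13 windows and in 45.0% of all. These matches describe letters in the window and not binding, which was not measured.

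The labels were checked first on MN1, BEND2 and CXXC5, whose counts include both inserted and endogenous transcripts. Levels are counts per 1000000 counts (CPM) scaled by TMM, edgeR's correction for library composition. MN1 lay at 325 to 328 CPM in MN1 cells, 291 in both MN1-BEND2 libraries, 128 in both MN1-CXXC5 libraries and 3.81 to 5.39 in the other 4. BEND2 lay at 390 to 407 CPM in BEND2 and MN1-BEND2 cells and at 0 to 0.573 in the other 6 libraries. CXXC5 lay at 55.2 and 61.9 CPM in MN1-CXXC5 cells and at 8.36 to 22.9 elsewhere. CPM of the construct genes therefore differed between lines, and that of MN1 was lowest in MN1-CXXC5 cells among the 3 lines that carry it. How much of each gene a fusion contains is not given in the sources here, so these CPM do not measure amounts of construct.

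Each library totalled between 15.9 and 26.8 M counts, M standing for 1000000, and a floor of 3 counts corresponds to 0.112 to 0.189 CPM. Of 6 marker genes of the HEK293 line, 5 (NEFL, NEFM, INA, PAX2 and VIM) exceeded 1 CPM and LHX1 lay at 0 to 0.325. This list, which includes neurofilament genes, summed to 1030 and 1060 CPM in MN1-BEND2 and 1130 and 1180 in MN1-CXXC5 cells. The sums were 799 and 829 in CTRL, 756 and 765 in BEND2, and 591 and 607 in MN1 cells. Of 7 neuronal markers 4 exceeded 1 CPM. All 7 together summed to 22.7 and 24.6 CPM in MN1-BEND2 cells against 32.3 to 54 elsewhere. The part of these shifts in the results was not tested. The Schwann cell markers summed to 21.3 to 28 CPM, nearly all of it PMP22, and SOX10 stayed under 1 CPM. Glial lineage markers summed to 98.5 to 155 CPM (7 of 8 over 1 CPM in some group), fibroblast markers to 5.03 to 12.5 (3 of 6). CTRL replicate 1 and MN1 replicate 1 stood apart: 10 salivary and squamous epithelial markers summed to 91.6 and 82.6 CPM there and to 0.244 to 2.27 in the other 8, and blood and immune markers to 6.56 and 7.08 against 0.573 to 2.59. Without those 2 libraries the MN1-BEND2 values below were as large for BDNF (log2 2.25 against CTRL), NTRK2 (1.39) and NGFR (3.08), and values that lost a call without them are given beside the results they touch.

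Between genes, levels can be compared only per length, here as CPM per kilobase of all annotated exons of a gene merged. This length, 20363 bases for NTRK2 and 4150 for NGFR, can exceed that of the transcripts present, and the order depends on it. By mean CPM, NTRK2 (7.46) lay above NGFR (3.22) in CTRL cells. In CTRL cells NGFR stood highest at 0.776 CPM per kilobase, followed by NTF3 at 0.591, BDNF at 0.367 and NTRK2 at 0.366, with NTF4 at 0.141 and NTRK3 at 8e-04. In MN1-BEND2 cells NGFR led at 5.53, with BDNF at 1.76, NTF3 at 1.17 and NTRK2 at 0.914. In MN1-CXXC5 cells BDNF led at 1.96 CPM per kilobase, NGFR was at 0.833 and NTF3 at 0.34. All 6 genes thus had low RNA levels in the control line, and the leading gene by this measure differed between the fusion lines. In bulk RNA, fewer cells expressing a gene and less RNA per cell cannot be told apart.

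**Figure D1:**
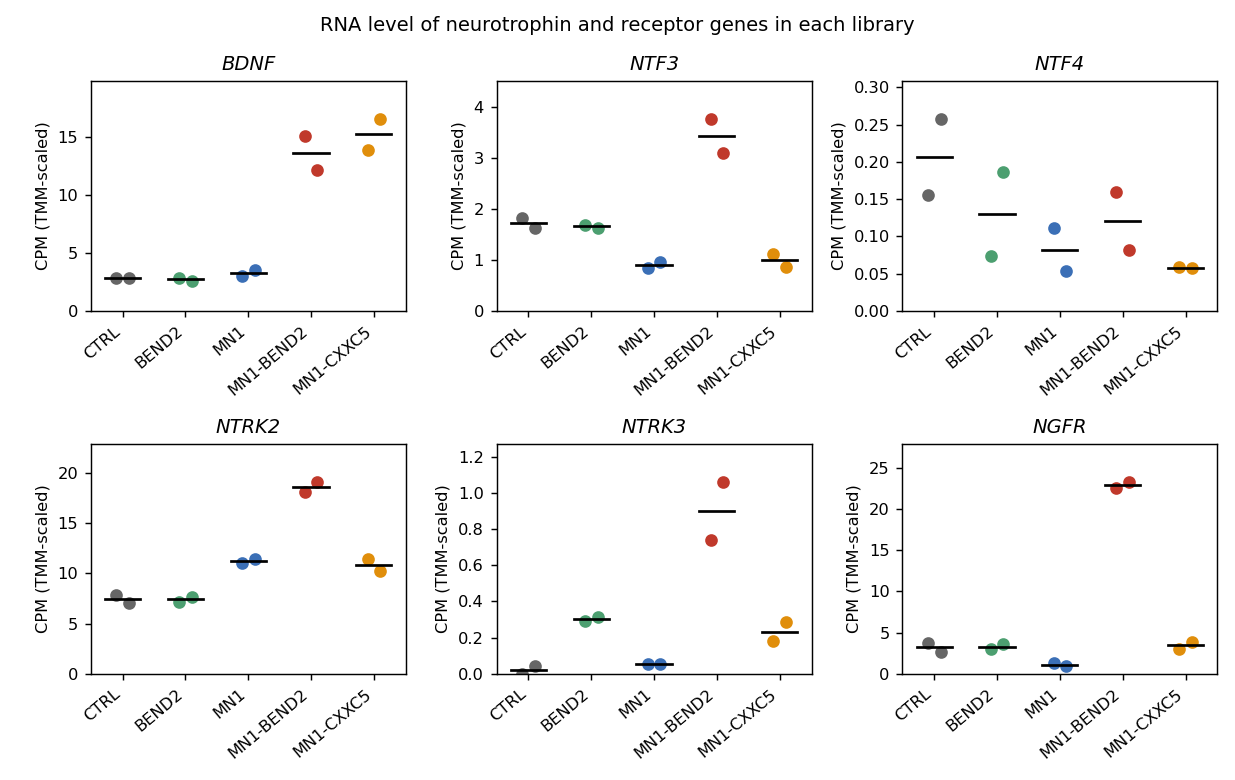
RNA level of the 6 genes in each library (y axis, TMM-scaled CPM, a separate linear scale per gene, each starting at 0); points are the 2 libraries of a group and the black line is their mean. BDNF is high in both fusion lines, NGFR in MN1-BEND2 cells alone among the 5 lines, and NTF4 and NTRK3 stay near or under 1 CPM throughout.

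BDNF encodes brain-derived neurotrophic factor (ENSG00000176697, chr11:27654893-27722058, minus strand, GRCh38). Its level was 2.86 and 2.82 CPM in CTRL, 2.86 and 2.62 in BEND2, 3.01 and 3.53 in MN1, 15.1 and 12.1 in MN1-BEND2, and 13.9 and 16.5 in MN1-CXXC5 cells. All 4 fusion libraries lay above all 6 others, and the 2 fusion lines overlapped each other. BDNF rose 4.77-fold over CTRL in MN1-BEND2 cells (log2 fold change 2.25, SE 0.151, adjusted p = 1.53e-07) and 5.32-fold in MN1-CXXC5 cells (log2 2.41, SE 0.151, adjusted p = 2.35e-07). Adjusted p-values come from the edgeR quasi-likelihood test, corrected by the Benjamini-Hochberg method over all 18127 tested genes, and a gene is said to rise or fall where the value is under 0.05. MN1 alone gave a log2 difference of 0.20 (95% interval -0.19 to 0.59) and BEND2 alone -0.04 (-0.43 to 0.35), neither past the test. Against MN1 cells the rises were 4.14-fold in MN1-BEND2 (adjusted p = 4.28e-07) and 4.62-fold in MN1-CXXC5 cells (adjusted p = 2.63e-07). Between the fusions the log2 difference was -0.16 (interval -0.44 to 0.12, adjusted p = 0.313).

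The antisense gene BDNF-AS (chr11:27506838-27698174, plus strand) shares 701 exon bases with BDNF, 9.1% of the exon length of BDNF. It lay at 3.59 and 3.21 CPM in CTRL, 2.09 and 2.37 in BEND2, 1.34 and 1.82 in MN1, 1.9 and 1.18 in MN1-BEND2, and 1.54 and 1.49 in MN1-CXXC5 cells. Both CTRL libraries exceeded the other 8. The antisense gene fell in MN1 (log2 -1.10, adjusted p = 0.00227), MN1-BEND2 (-1.16, adjusted p = 9.78e-04) and MN1-CXXC5 cells (-1.16, adjusted p = 0.00174), and stood at -0.62 in BEND2 cells (adjusted p = 0.0813), a value called with the replicate number as a block (-0.63, adjusted p = 0.0351) and with only the groups compared (adjusted p = 0.0399). Without the 2 libraries with salivary transcripts the value in MN1 cells was -0.82 (adjusted p = 0.0824). The strand setting of the counting is not given, so reads of the shared bases cannot be assigned to a strand. With the counts of both genes summed, the rise was still past the test but smaller, at log2 1.28 in MN1-BEND2 (adjusted p = 9.13e-06) and 1.42 in MN1-CXXC5 cells (adjusted p = 7.94e-06). In MN1 cells the antisense gene was lower and BDNF did not pass the test, and a link between the levels of these genes was not tested.

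**Figure D2:**
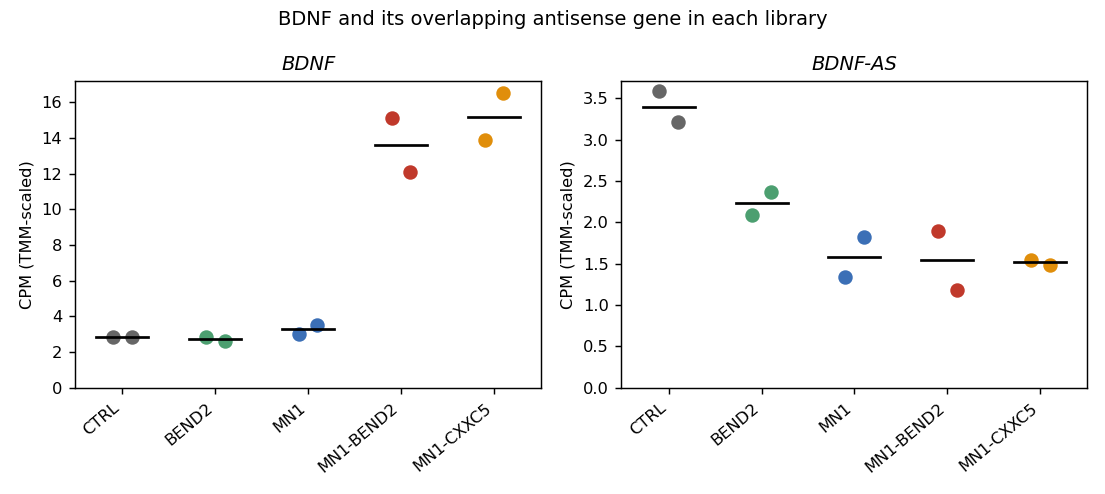
TMM-scaled CPM (y axis, linear, from 0) of BDNF (left) and of the antisense gene BDNF-AS (right) in each library; points are libraries and lines are group means. BDNF separates the fusion lines from the rest, whereas BDNF-AS separates CTRL from the 4 construct lines.

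NTF3 encodes neurotrophin-3 (ENSG00000185652, chr12:5432112-5521536, plus strand). It was measured at 1.82 and 1.63 CPM in CTRL, 1.69 and 1.62 in BEND2, 0.836 and 0.964 in MN1, 3.75 and 3.09 in MN1-BEND2, and 1.12 and 0.86 in MN1-CXXC5 cells. The 2 fusion lines therefore fell on opposite sides of CTRL, with no overlap of the groups. NTF3 rose in MN1-BEND2 cells (log2 0.98, SE 0.187, adjusted p = 8.09e-04) and fell in MN1 (-0.93, SE 0.234, adjusted p = 0.00688) and MN1-CXXC5 cells (-0.79, SE 0.233, adjusted p = 0.0181). BEND2 alone gave -0.05 (interval -0.5 to 0.4). The direct comparison of MN1-BEND2 with MN1-CXXC5 was a log2 difference of 1.77 (SE 0.213, adjusted p = 1.67e-05), and MN1-CXXC5 differed from MN1 by 0.14 (interval -0.44 to 0.72). NTF3 had only 359 counts in all 10 libraries, and its calls against CTRL were less firm than those of BDNF: with DESeq2 the adjusted p-values were 0.0598 in MN1-BEND2, 0.153 in MN1 and 0.246 in MN1-CXXC5 cells. Without CTRL replicate 1 and MN1 replicate 1, the fall stood at -0.75 in MN1 (adjusted p = 0.149) and -0.69 in MN1-CXXC5 cells (adjusted p = 0.101). The fall in MN1 cells also lost its call without MN1 replicate 1 alone (-0.83), and that in MN1-CXXC5 cells without CTRL replicate 1 (-0.71) or MN1-CXXC5 replicate 2 (-0.61).

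NTF4 (ENSG00000225950, chr19:49061066-49065054, minus strand), the gene of NT-4, gave 24 reads in 10 libraries and did not pass the filter on low counts. The libraries held 3 and 6 reads in CTRL, 2 and 3 in BEND2, 2 and 1 in MN1, 3 and 2 in MN1-BEND2, and 1 and 1 in MN1-CXXC5 cells. The ratio to CTRL of depth-scaled counts was 0.543 in MN1-BEND2 (exact 95% binomial interval 0.143 to 1.81) and 0.276 in MN1-CXXC5 cells (0.029 to 1.33), so a difference was not detectable at this depth. These intervals cover counting error only. The same held for MN1 (0.388, interval 0.0675 to 1.55) and BEND2 cells (0.546, interval 0.144 to 1.82).

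NTRK2 encodes TrkB, the receptor of BDNF and NT-4 (ENSG00000148053, chr9:84668551-85027070, plus strand). Levels were 7.86 and 7.06 CPM in CTRL, 7.18 and 7.68 in BEND2, 11 and 11.4 in MN1, 18.1 and 19.1 in MN1-BEND2, and 11.4 and 10.2 in MN1-CXXC5 cells. The MN1-BEND2 libraries were highest, the MN1 and MN1-CXXC5 libraries overlapped at an intermediate level, and BEND2 overlapped CTRL. NTRK2 rose 2.5-fold over CTRL in MN1-BEND2 (log2 1.32, SE 0.0924, adjusted p = 2.17e-07), 1.5-fold in MN1 (0.59, SE 0.0981, adjusted p = 4.44e-04) and 1.45-fold in MN1-CXXC5 cells (0.53, SE 0.0993, adjusted p = 9.28e-04). MN1-BEND2 exceeded MN1 by log2 0.73 (adjusted p = 3.10e-05) and MN1-CXXC5 by 0.79 (adjusted p = 1.16e-05). MN1-CXXC5 differed from MN1 by -0.05 (interval -0.26 to 0.16), and BEND2 from CTRL by -0.01 (-0.23 to 0.21). The longest NTRK2 transcript has 43.4% GC. With offsets for GC content and length, the rise in MN1-CXXC5 cells was log2 0.28 (adjusted p = 0.0383) and MN1-CXXC5 lay below MN1 by -0.33 (adjusted p = 0.0162).

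TrkC, the receptor of NT-3, is encoded by NTRK3 (ENSG00000140538, chr15:87859751-88256768, minus strand). It gave 64 reads in all, with 0 and 1 in CTRL, 8 and 5 in BEND2, 1 and 1 in MN1, 14 and 26 in MN1-BEND2, and 3 and 5 in MN1-CXXC5 cells. The gene passed the filter only through the MN1-BEND2 libraries, at 0.74 and 1.06 CPM, so its call there carries no weight as a member count. Reads in MN1-BEND2 cells were 39.1 times those in CTRL after depth scaling (interval 6.63 to 1580, 40 reads against 1), 16.8 times those in MN1 (4.36 to 144) and 3.06 times those in BEND2 cells (1.6 to 6.24). The ratios to CTRL were 12.8 in BEND2 (interval 1.92 to 543) and 9.92 in MN1-CXXC5 cells (1.33 to 440). The edgeR calls against CTRL for BEND2 (adjusted p = 0.0265) and MN1-CXXC5 (adjusted p = 0.0253) were lost in 6 and 4 of 17 alternatives, among them DESeq2 (adjusted p = 0.312 and 0.16) and the fit without CTRL replicate 1 and MN1 replicate 1 (0.157 and 0.13, as adjusted p). Leaving out either BEND2 library or either CTRL library ended the BEND2 call, and leaving out CTRL replicate 1 or MN1-CXXC5 replicate 2 ended the MN1-CXXC5 call. MN1-BEND2 cells also had more reads than MN1-CXXC5 cells (ratio 3.94, interval 1.82 to 9.75), a call lost with DESeq2 and without MN1-BEND2 replicate 2, and the lower level in MN1 than in BEND2 cells lost its call in 10 of 17 alternatives.

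NGFR encodes p75, the receptor shared by all neurotrophins (ENSG00000064300, chr17:49495293-49515017, plus strand). Its level was 3.75 and 2.69 CPM in CTRL, 3.04 and 3.56 in BEND2, 1.28 and 0.91 in MN1, 22.6 and 23.3 in MN1-BEND2, and 3.02 and 3.9 in MN1-CXXC5 cells. MN1 and MN1-BEND2 cells lay on opposite sides of the other 3 lines, which overlapped. NGFR fell 2.91-fold in MN1 cells (log2 -1.54, SE 0.237, adjusted p = 2.46e-04) and rose 7.18-fold in MN1-BEND2 cells (log2 2.84, SE 0.162, adjusted p = 3.77e-08). From MN1 to MN1-BEND2 cells the difference was 20.9-fold (log2 4.38, SE 0.195, adjusted p = 5.84e-09). In MN1-CXXC5 cells NGFR did not reach the test against CTRL (log2 0.12, interval -0.31 to 0.54), exceeded MN1 by 1.66 (SE 0.24, adjusted p = 1.12e-04) and lay below MN1-BEND2, which was higher by 2.73 (SE 0.165, adjusted p = 5.33e-08). The longest NGFR transcript is GC-rich, at 62.8%. With offsets for GC content and length, MN1-CXXC5 stood at 0.48 against CTRL (adjusted p = 0.0631), or 0.49 with the replicate number as a block as well (adjusted p = 0.0423), and MN1-BEND2 at 2.59.

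**Figure D3:**
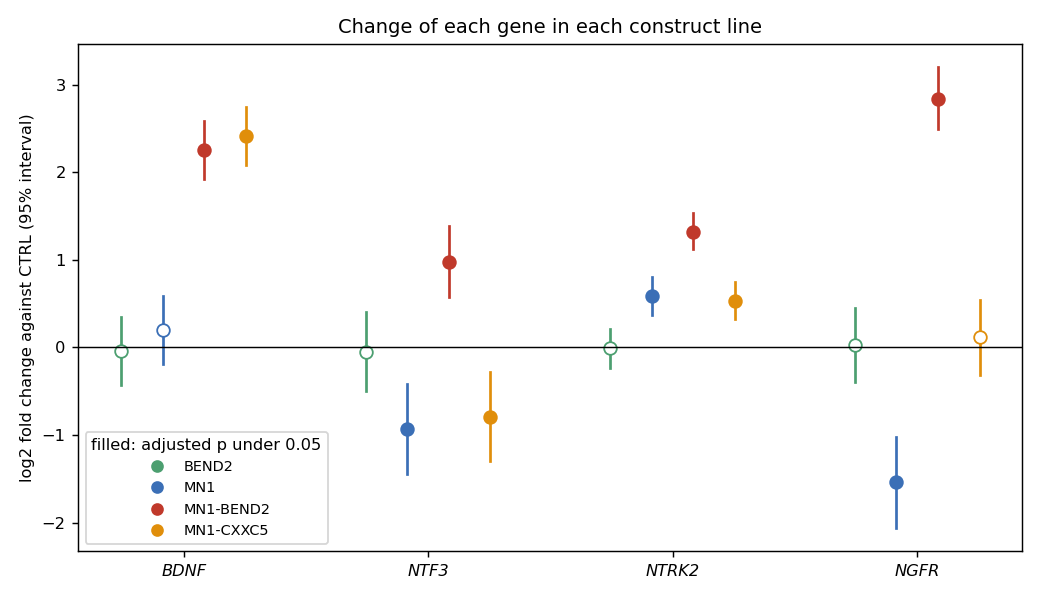
Log2 fold change against CTRL (y axis) of the 4 genes that passed the filter in every group, with 95% intervals; filled points have an adjusted p under 0.05. The 4 construct lines share the CTRL libraries, so their points are not independent; NGFR runs from -1.54 in MN1 to 2.84 in MN1-BEND2 cells.

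By count, all 4 members that passed the filter in every group (BDNF, NTF3, NTRK2 and NGFR) were higher in MN1-BEND2 than in CTRL cells, where 51.9% of all tested genes were called in either direction and 26.7% higher. All 4 were also higher than in MN1 cells (46.3% of genes called, 23.2% higher) and in BEND2 cells (43.6% called, 21.7% higher). MN1-CXXC5 cells had 2 of the 4 higher (BDNF, NTRK2) and 1 lower (NTF3) than CTRL (44.3% of genes called, 19.2% higher and 25.1% lower), and 2 higher than MN1 (BDNF and NGFR; 48.8% called, 23.3% higher). MN1 cells had 1 higher (NTRK2) and 2 lower (NTF3, NGFR) than CTRL (43% of genes called, 21.6% higher and 21.4% lower). BEND2 cells had 0 of the 4 called against CTRL by edgeR and by DESeq2, and 0 at an unadjusted p under 0.05 in either, where 14.2% of all genes were called and 6.71% higher by edgeR. That share for BEND2 cells moves with the method, to 3.5% of the genes DESeq2 tested and 22.9% with the replicate number as a block. The fusions differed in 3 of the 4, NTF3, NTRK2 and NGFR, each higher in MN1-BEND2 cells, where 58.6% of genes were called and 31.1% were higher. MN1 and BEND2 cells differed in 3 (NTRK2 higher, NTF3 and NGFR lower in MN1 cells; 31.1% of genes called, 15.9% higher and 15.2% lower), and MN1-CXXC5 and BEND2 in 3 (BDNF and NTRK2 higher, NTF3 lower; 45.2% called, 20.9% higher and 24.4% lower). With so many genes called, the counts say little about the 6 genes as a family, and the sizes and directions of the single genes carry the description. Without CTRL replicate 1 and MN1 replicate 1 the counts against CTRL were 4 for MN1-BEND2, 2 for MN1-CXXC5, 2 for MN1 and 0 for BEND2. NTF3 in MN1 against BEND2 cells then stood at log2 -0.78 (adjusted p = 0.106).

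The MN1-BEND2 fusion was also compared with its parts by a test of whether its log2 change exceeds the sum of those of MN1 and BEND2. Construct doses are not known to match, and the sum shares the CTRL libraries with the measured change. For BDNF the parts summed to 0.16 and the fusion stood at 2.25, an excess of 2.09 (SE 0.236, adjusted p = 2.94e-05). NGFR showed -1.51 for the sum against 2.84, an excess of 4.35 (SE 0.282, adjusted p = 3.45e-07). For NTF3 the sum was -0.98 and the fusion 0.98, an excess of 1.96 (SE 0.299, adjusted p = 3.08e-04). In the case of NTRK2 the sum was 0.58 and the fusion 1.32, an excess of 0.74 (SE 0.135, adjusted p = 0.00107). Thus the 4 members exceeded the sum, where 36.9% of all tested genes were called and 18.3% with an excess. NTF3 and NGFR were lower in MN1 cells and higher in MN1-BEND2 cells than in CTRL, while NTRK2 moved the same way in both. NTRK3 gave an excess of 0.55 with an SE of 2.37 and was not called (adjusted p = 0.895).

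**Figure D4:**
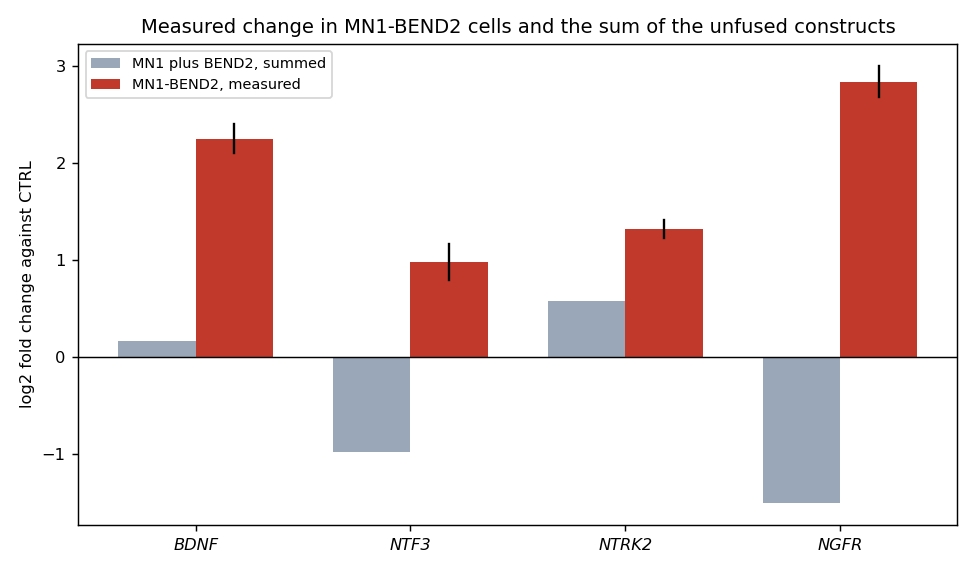
Log2 fold change against CTRL (y axis, bars from 0): grey bars add the values of MN1 and BEND2 cells, drawn without error bars, and red bars are the measured MN1-BEND2 value with its standard error (black line). NTF3 and NGFR have a sum below 0 and a measured value above 0.

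The other genes of the pathway were taken from a list of 88 genes in 7 roles, of which 81 were tested. In MN1-BEND2 cells 38 were higher and 20 lower than in CTRL (71.6% called, against 51.9% of all tested genes), with a median log2 change of 0.13 beside 0.01 over all genes. MN1-CXXC5 cells had 18 higher and 33 lower (63% called against 44.3%), with a median of -0.06 beside -0.03. In MN1 cells 18 were higher and 25 lower (53.1% called against 43%, median -0.06), and in BEND2 cells 9 and 6 (18.5% against 14.2%, median 0.02).

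Genes that Trk signalling is known to induce differed between the 2 fusion lines in 7 of 8 cases by the direct test given below, and in 5 with DESeq2. All 8 (EGR1, EGR2, FOS, JUNB, ARC, VGF, DUSP6, NR4A1) were higher in MN1-BEND2 cells than in CTRL, with a median of 1.15, beside 26.7% of all tested genes. NR4A1 was at the threshold (log2 0.26, adjusted p = 0.0497) and was called in only 1 alternative, so 7 rose in the fit without CTRL replicate 1 and MN1 replicate 1. DESeq2 called 6, losing EGR2 as well as NR4A1. JUNB, a subunit of AP-1, lay at 54.7 and 52.8 CPM in MN1-BEND2 cells against 11.7 and 10.7 in CTRL (log2 2.26, SE 0.0639, adjusted p = 1.54e-10). EGR1, an immediate early zinc finger factor, lay at 28.1 and 28 CPM against 9.53 and 10.3 (log2 1.5, SE 0.0844, adjusted p = 3.45e-08). VGF, a secreted neuropeptide precursor, lay at 5.29 and 6.3 CPM against 2.5 and 2.1 (log2 1.34, SE 0.194, adjusted p = 9.70e-05). None of the MN1-BEND2 libraries overlapped CTRL for these 3 genes. Many other stimuli induce the same genes, and neither Trk phosphorylation nor any protein was measured here.

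In MN1-CXXC5 cells 2 of the 8 response genes were higher and 5 lower, with a median of -0.28, beside 19.2% of all tested genes higher and 25.1% lower. DUSP6, a phosphatase of ERK, rose (13.6 and 13.5 CPM against 8.54 and 8.21 in CTRL, log2 0.69, adjusted p = 2.59e-04), as did FOS (log2 0.53, adjusted p = 0.0242), whose call was lost with DESeq2, without CTRL replicate 1 (0.42), without either MN1-CXXC5 library (0.47 and 0.59), and without CTRL replicate 1 and MN1 replicate 1 together (0.45, adjusted p = 0.0979). NR4A1, an immediate early nuclear receptor, fell (4.79 and 4.3 CPM against 8.54 and 7.87, log2 -0.85, adjusted p = 8.65e-05). The direction of this group in MN1-CXXC5 cells flipped with offsets for GC content and length, where 2 were higher, 1 lower and the median 0.04. Without MN1-CXXC5 replicate 1 only 1 was higher and 1 lower, without either CTRL library 3 were lower, and without CTRL replicate 1 and MN1 replicate 1 together 1 was higher and 2 lower (median -0.25). MN1-BEND2 exceeded MN1-CXXC5 in 7 of the 8, beside 31.1% of all tested genes, with DUSP6 at -0.01 (interval -0.23 to 0.22). DESeq2 called 5, losing EGR2 and FOS. The median of this comparison was 1.23, and 0.83 with GC and length offsets. In MN1 cells 0 of the 8 were higher and 6 lower than in CTRL (median -0.60), beside 21.6% of all tested genes higher and 21.4% lower. DESeq2 reduced the 6 to 1. With only the groups compared, 3 were lower. The 6 also did not all keep their calls without CTRL replicate 1 or 2 (medians -0.64 and -0.51) or without MN1 replicate 1 or 2 (-0.63 and -0.53). The same held without CTRL replicate 1 and MN1 replicate 1 together (median -0.67). VGF fell by 0.96 on the log2 scale in MN1 cells (adjusted p = 0.00704), although not with DESeq2 or without MN1 replicate 2. BEND2 cells had EGR1 (log2 0.38, adjusted p = 0.016) and ARC (0.54, adjusted p = 0.0199) higher, beside 6.71% of all tested genes. Both calls were lost with DESeq2 and without either BEND2 library or CTRL replicate 1. Without CTRL replicate 1 and MN1 replicate 1 together, EGR1 stood at 0.33 (adjusted p = 0.0959) and ARC at 0.48 (adjusted p = 0.119).

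Among Trk adaptors, 12 of 28 tested rose and 6 fell in MN1-BEND2 cells (64.3% called against 51.9% of all genes, median 0.08). DOK6, a docking protein of receptor kinases, had 4.44 and 5.65 CPM there and 0 to 0.229 CPM in the other 8 libraries. DOK6, like NTRK3, passed the filter only through the MN1-BEND2 libraries, so its call there carries no weight in the count of adaptors. Its reads in MN1-BEND2 cells were 218 times those in CTRL after depth scaling (interval 38.8 to 8650, 223 reads against 1) and 29.3 times those in MN1-CXXC5 cells (13.3 to 80.7). The MN1-CXXC5 line had 5 adaptors higher and 10 lower (53.6% called against 44.3%, median -0.04), with SHC2, an adaptor of the Shc family, down (log2 -1, SE 0.123, adjusted p = 4.21e-05).

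Of 9 precursor-processing genes, 4 rose and 1 fell in MN1-BEND2 cells (55.6% called against 51.9%, median 0.39), and 3 rose and 2 fell in MN1-CXXC5 cells (55.6% against 44.3%, median 0.16). The share called in MN1-BEND2 cells was thus near that of all genes. FURIN, a convertase that cuts proneurotrophins, was measured at 61.9 and 59.1 CPM in MN1-BEND2 and 26.7 and 25.3 in MN1-CXXC5 cells against 44.9 and 41.9 in CTRL. It rose in the former (log2 0.48, adjusted p = 3.41e-06) and fell in the latter (-0.74, adjusted p = 7.84e-07). FURIN also lay above CTRL in MN1 (58.3 and 58.1 CPM) and BEND2 cells (52.7 and 54.7 CPM). NTF3 thus moved the same way as FURIN in the fusion lines only. PLAT, the plasminogen activator that frees plasmin to cut proBDNF, fell in MN1-BEND2 cells (log2 -0.63, adjusted p = 3.88e-06), and the convertase PCSK5 rose in MN1-CXXC5 cells (0.48, adjusted p = 8.93e-05). In MN1 cells the convertase PCSK7 rose (0.67, adjusted p = 4.88e-05) and PCSK1, which acts in secretory granules, fell (-2.24, adjusted p = 0.00139) from 1.56 ± 0.149 to 0.323 ± 0.3 CPM (SD, n = 2).

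Of 6 tested genes for other ligands and receptors, 2 rose and 1 fell in MN1-BEND2 cells (50% called against 51.9% of all genes), and 1 rose and 4 fell in MN1-CXXC5 cells (83.3% against 44.3%). RTN4R, the Nogo receptor that can pair with p75, lay at 3.86 and 3.9 CPM in MN1-BEND2 and 0.888 and 1.03 in MN1-CXXC5 cells against 1.61 and 1.8 in CTRL. It rose in MN1-BEND2 (log2 1.18, adjusted p = 6.01e-05), MN1 (0.87, adjusted p = 0.00116) and BEND2 cells (0.95, adjusted p = 0.00326; the latter 2 calls were lost with DESeq2) and fell in MN1-CXXC5 cells (-0.83, adjusted p = 0.0131).

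Of 12 tested partners of p75, 5 were higher and 4 lower in MN1-BEND2 cells (75% called against 51.9% of all genes), and 3 higher and 6 lower in MN1-CXXC5 cells (75% against 44.3%). The p75-binding zinc finger protein PRDM4 fell in MN1-BEND2 cells (log2 -0.72, adjusted p = 5.06e-07). MAGED1, which binds the p75 intracellular part, rose in MN1 cells (0.82, adjusted p = 1.07e-07), and the kinase RIPK2 fell in BEND2 cells (-0.26, adjusted p = 0.00248; 0.122 with DESeq2). Among genes of receptor traffic, 3 of 8 rose and 4 fell in MN1-BEND2 cells (87.5% called against 51.9%), and 1 rose and 2 fell in MN1-CXXC5 cells (37.5% against 44.3%). The ubiquitin ligase NEDD4L fell in MN1-BEND2 (-0.62, adjusted p = 6.54e-08) and BEND2 cells (-0.21, adjusted p = 0.00334), the latter call lost with DESeq2 (adjusted p = 0.0805).

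Of 10 tested regulators of BDNF transcription, 4 rose and 4 fell in MN1-BEND2 cells (80% called against 51.9% of all genes, median 0.06), and 3 rose and 4 fell in MN1-CXXC5 cells (70% against 44.3%, median -0.01). Calls over all genes were split about as evenly, with 4841 higher and 4575 lower in MN1-BEND2 cells. BHLHE40, a repressor that binds an E-box of the BDNF locus, fell in MN1 cells (log2 -1.12, SE 0.0509, adjusted p = 2.88e-08) and in BEND2 cells (-0.30, adjusted p = 0.00184). It also fell in MN1-BEND2 (-0.60, adjusted p = 6.11e-07) and MN1-CXXC5 cells (-0.47, adjusted p = 1.08e-05), and thus in all 4 construct lines. The part of BHLHE40 in the level of BDNF was not tested. CREB1, the CRE-binding activator, fell in MN1-BEND2 cells (-0.32, adjusted p = 1.32e-05) and stood at 0.02 in MN1-CXXC5 cells. REST, a repressor of neuronal genes, rose in MN1-BEND2 (0.49, adjusted p = 2.82e-06) and MN1-CXXC5 cells (0.22, adjusted p = 0.00266). BHLHE40, CREB1 and REST are given for the motifs and the known control of BDNF, and beyond the naming rule where they were not among the 3 largest changes.

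**Figure D5:**
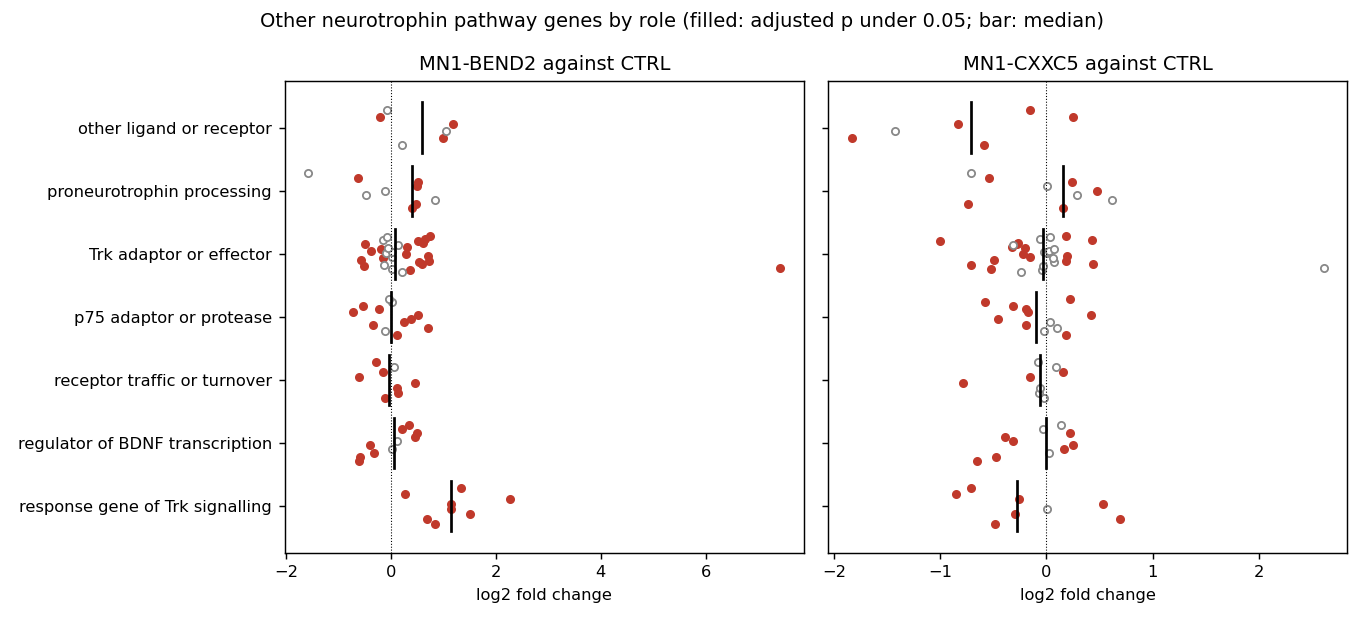
Log2 fold change (x axis, a different linear scale in each panel) of the 81 tested pathway genes by role in MN1-BEND2 (left) and MN1-CXXC5 cells (right) against CTRL; filled points have an adjusted p under 0.05 and black bars are medians. The point beyond 7 on the left is DOK6, whose fitted value depends on a prior count because CTRL held 1 read; the response genes have a median of 1.15 on the left and -0.28 on the right.

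Between fusions, the pathway list had 43 genes higher and 21 lower in MN1-BEND2 than in MN1-CXXC5 cells (79% called against 58.6% of all genes, median 0.21 beside 0.02). Besides DOK6, the genes named for this comparison were JUNB upward (log2 2.52, adjusted p = 1.83e-10), and MEF2C (-0.66, adjusted p = 4.66e-06), PCSK5 (-0.59, adjusted p = 7.95e-06) and SHC3 (-0.59, adjusted p = 0.00732) downward. The SHC3 call was lost with DESeq2 (adjusted p = 0.106), without MN1-BEND2 replicate 2 (-0.46, adjusted p = 0.0747) and without MN1-CXXC5 replicate 1 (-0.49, adjusted p = 0.0564). MEF2C is a transcription factor of the BDNF regulator list. Against MN1 cells, MN1-BEND2 cells had lower PLAT (-0.96), MEF2C (-0.93) and BEX1 (-0.46), and higher JUNB (2.51) and VGF (2.30). Against BEND2 cells they had lower PLAT (-0.62), PRDM4 (-0.58) and SH2B3 (-0.58), and higher JUNB (2.06) and VGF (1.57). MN1-CXXC5 cells exceeded MN1 cells in PCSK1 (2.53), DUSP6 (1.44) and IRS2 (0.98) and lay below them in RTN4R (-1.70), FURIN (-1.16) and GIPC1 (-1). Each of the values in these last 3 comparisons passed the test.

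The genes whose log2 CPM followed each member most closely over the 10 libraries were taken from 11905 genes of at least 5 CPM in some group. The coefficients are descriptions over libraries that share groups. BDNF was followed by FBN1 and WDR44 (Pearson r 0.989 each), HOXB5 (0.988), WWC2 and PRDM8 (0.987 each), and WDR44 had group means of 46.2 CPM in CTRL, 56.8 in MN1, 107 in MN1-BEND2 and 117 in MN1-CXXC5 cells. NTF3 was followed by SIPA1L2 and UNC5A (0.982 each), EIF3D (0.979), ZNF213-AS1 and IL6R (0.978 each), and UNC5A, a netrin receptor gene, had group means of 2.08 CPM in CTRL, 0.983 in MN1, 6.22 in MN1-BEND2 and 1.2 in MN1-CXXC5 cells. For NTRK2 they were EOGT (0.988), EML6 (0.982), PIP5K1B and TNFRSF10D (0.981 each) and SLC33A1 (0.98). For NGFR they were USP3 (0.992), EDA (0.991), HACD3 (0.99), SLC30A1 and POLR1B (0.989 each), and for the sparse NTRK3 they were CDX2 (0.98), LMX1B (0.979), IQSEC1 (0.962), IGSF3 (0.951) and MAPKBP1 (0.946). Among the members themselves, NTF3 and NGFR were closest (r = 0.87), BDNF and NTRK2 stood at 0.73, and BDNF and NTF3, which part in MN1-CXXC5 cells, at 0.23.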

How the data were processed

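The authors deposited whole-number read counts per gene for 10 libraries, 2 in each of 5 groups, without normalization. The submitters' processing notes name featureCounts 2.0.0, HISAT2 and SAMtools 1.0.1 and the build GRCh38 (hg38). The annotation and strand setting are not given in the sources here. Identifiers (58216, of which 45 had 2 lines that were summed) were matched to GENCODE v29, which gave positions, exon lengths and GC content.

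The quasi-likelihood F-test of edgeR 4.0.16 (R 4.3.3) was run on the counts, scaled by TMM and filtered by filterByExpr, in 1 fit over all libraries with 5 residual degrees of freedom and in 10 pairwise contrasts and 1 contrast of MN1-BEND2 against the sum of its parts, with Benjamini-Hochberg adjustment over 18127 genes. A gene was called where the adjusted p was under 0.05. The filter needed 0.532 CPM in 2 libraries or more and passed 5 of the 6 genes. DESeq2 1.42.0 and 18 other alternatives were run, and scripts were tested on simulated data. Members, lists and tests were chosen with earlier results of these data known, including the salivary list. Of the pathway list, each comparison names up to 3 called genes in each direction by size of change, with at least 1 CPM in the higher group; antisense genes of members and the 5 closest genes by correlation are also named, and NTRK3-AS1 had 0 counts. Some genes that these rules select are not reported here. JUNB, VGF, EGR1, FOS, DUSP6, FURIN, RTN4R, BHLHE40, CREB1 and REST also appear where the rule did not name them. Replicate libraries differed by more than counting noise (chi-square per degree of freedom 2.12 to 3.52).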

Additional observations from a re-analysis of the deposited data

Results flagged for a closer look

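The change that went with BEND2 sequence differed between cells with and without MN1 sequence for 4 members, by a test of the difference itself: the log2 excess of MN1-BEND2 over the sum of MN1 and BEND2 was 4.35 for NGFR, 2.09 for BDNF, 1.96 for NTF3 and 0.74 for NTRK2. Each excess kept its call in every alternative run (largest adjusted p 6.36e-06 for NGFR, 8.07e-04 for BDNF, 0.0143 for NTF3 and 0.026 for NTRK2). Both MN1-BEND2 libraries lay above both libraries of each of CTRL, MN1 and BEND2 for all 4 genes. The amounts of construct are not known to match between the lines, and their part in these values was not tested. Mean MN1 was 326 CPM in MN1 and 291 in MN1-BEND2 cells, and mean BEND2 was 395 in BEND2 and 400 in MN1-BEND2 cells.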

How the results depend on the processing

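Over 19 alternatives, 946 of 995 member values kept their side of the threshold, 44 lost a call, 5 gained one and 0 called values reversed. The 946 include values without a call that changed sign. BDNF in MN1 against CTRL, for example, went from 0.20 to -0.36 with BDNF-AS summed in. Of the counts of called members, NTRK3 included, 193 of 209 stayed within 1.5 times. Because NTRK3 passed the filter only through the MN1-BEND2 libraries, its calls add no weight to these counts or to those that follow. DESeq2 gave 0 (from 1) for BEND2 against CTRL, 2 (from 4) for MN1-CXXC5 against CTRL, 3 (from 5) for MN1-BEND2 against BEND2 and 2 (from 4) for MN1 against BEND2. The fit without CTRL replicate 1 and MN1 replicate 1 gave 0, 2 and 2 for BEND2 against CTRL, MN1-CXXC5 against CTRL and MN1 against BEND2, and the fit on only the groups compared gave 0 for BEND2 against CTRL. Leaving out 1 library at a time gave 0 to 1 for BEND2 against CTRL, 2 to 4 for MN1-CXXC5 against CTRL and for MN1 against BEND2, 4 to 5 for MN1-BEND2 against BEND2, 2 to 3 for MN1 against CTRL and 5 in each case for MN1-BEND2 against CTRL. The counts lost were of NTF3 and NTRK3, the tested members with the fewest reads. A lone library left in a group was assumed to vary like the other groups. NTRK2 in MN1-CXXC5 against BEND2 went from 0.54 to 0.24 with GC and length offsets (adjusted p = 0.0759), and NGFR in the same comparison from 0.09 to 0.58 (adjusted p = 0.0341). Fitted NTRK3 values moved to 5.59 (BEND2) and 5.23 (MN1-CXXC5) without CTRL replicate 2, the control library that held its 1 read. The alternative that sums BDNF with BDNF-AS was chosen after seeing the data.

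The replicate number as a block changed no call of a member, and BDNF in MN1-BEND2 against CTRL stood at 2.25 (adjusted p = 1.40e-10). Same-numbered libraries deviated together with correlations of 0.07 to 0.29 over 10 pairs of groups, all above 0 and 9 over 0.1. The criterion for pairing was that every correlation exceed 0.1. It was missed, so the main fit had no block, which does not show that no batch exists. Both libraries with salivary transcripts carry the number 1. The labels name no shared batch, and whether a number marks one was not tested. The number of genes called over the whole table moved more. For BEND2 against CTRL it was 2569, and 634 with DESeq2, 4159 with the block, 1652 with GC and length offsets, 1239 without CTRL replicate 1 and MN1 replicate 1, and 1064 to 1350 without either library of the 2 groups. DESeq2 also called 4702 (from 7786) for MN1 and 4862 (from 8033) for MN1-CXXC5 against CTRL, 5333 (from 8398) for MN1-BEND2 against MN1, 4776 (from 7909), 2695 (from 5632) and 5112 (from 8199) for MN1-BEND2, MN1 and MN1-CXXC5 against BEND2, and 3661 (from 6687) beyond the sum. MN1 against BEND2 gave 3665 without BEND2 replicate 1. Depth limits NTF4 and NTRK3, at 24 and 64 reads in all.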
